A study of Mus musculus with 6 samples.

Results

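The interleukin-1 family genes described here are 10 members, the ligands Il1a, Il1b, Il18 and Il33, the receptor antagonist Il1rn, and the receptor genes Il1r1, Il1r2, Il1rap, Il1rl1 and Il18r1. They were found by their symbols, and all 10 were among the 24421 gene rows of each deposited file. The series holds RNA sequencing of colon tissue from C57BL/6 mice, 6 samples in all. A group of 3 samples came from mice with chronic colitis induced by dextran sulfate sodium (DSS), a sulfated sugar polymer toxic to the epithelial lining of the colon, and the other 3 were controls. The labels name no other agent or allele, no dose, duration or region of the colon, and give an age of 7 weeks, worded so that older mice may be included, for both groups. Whether each sample is a different mouse is not stated in the labels, and if not, the spread behind every p-value may be technical. Values are FPKM, read fragments scaled to the length of the transcript and to the mapped fragments of the sample, so levels can be set side by side between genes. Values of a group are listed in the order of its replicate numbers.

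Interleukin-1 alpha and interleukin-1 beta bind the receptor encoded by Il1r1, which then recruits the accessory protein encoded by Il1rap and signals through the adaptor MyD88 to NF-kappaB and MAP kinases. The antagonist encoded by Il1rn occupies the same receptor without recruiting the accessory protein, and the decoy receptor encoded by Il1r2 binds the ligands without signalling. Interleukin-18 and interleukin-1 beta are made as inactive precursors that caspase-1 can cleave, while interleukin-33 is a nuclear protein released from damaged barrier and stromal cells that signals through ST2, the product of Il1rl1, with the same accessory protein. In the gut, interleukin-18 is known as a product of the epithelium and interleukin-1 beta as one of myeloid cells.

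Summed over all genes, the samples held 609544 to 678076 FPKM, and read totals are unknown. Across the 12348 genes tested, DSS 1 correlated with the other DSS samples at 0.936 and 0.953 and with the controls at 0.932 to 0.937, while control samples correlated with each other at 0.971 to 0.986. DSS 1 therefore stands nearer to the controls than DSS 2 and DSS 3 do. All 12 colon epithelial markers were read in every sample, with summed levels of 15845 to 20995 FPKM in control and 11685 to 19025 FPKM in DSS colon. Car1 alone held 1397, 9924 and 5679 FPKM in DSS 1 to 3 and 2401 to 3688 FPKM in control colon. Of the 12, 5 lay below control in every DSS sample and 0 above, beside 9.51% and 25.6% of all tested genes. The summed level of 6 smooth muscle markers was 1166 to 3298 FPKM in DSS and 3478 to 4410 FPKM in control samples, and that of 6 B and plasma cell markers was 131 to 2640 FPKM, highest in DSS 1, and 523 to 731 FPKM. Of these B and plasma cell markers none was called (limma, 0 also at an unadjusted p under 0.05), and without DSS 1 Cd79a and Ms4a1 were called lower and the list's median log2 difference went from -0.165 to -1.21. A listed 0 or low value can be a failed estimate, as the glycolysis gene Gapdh shows. It was listed at 0, 21.4 and 36.1 FPKM in DSS 1 to 3 and at 2.00, 0.117 and 0.145 FPKM in control 1 to 3. Such errors therefore need not be equal between the groups. Of all genes tested, 8.9% were called (limma, Benjamini-Hochberg adjusted p under 0.05), 6.34% higher and 2.56% lower in DSS, which is 783 and 316 genes. With upper-quartile scaling the split was 544 higher and 467 lower, and with median-of-ratios scaling 517 and 503. The median log2 difference of all tested genes was 0.134, which those scalings moved to 0.0184 and -0.00245. In bulk tissue, a change in the number of cells of a type and a change of RNA per cell cannot be told apart.

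Of the 10 members, 9 reached the level needed for testing, which was 1 FPKM in at least 3 samples, and Il18r1 did not. Il1a reached it through the DSS samples alone and Il1r2 through them and 1 control sample, so no weight is put on the share of tested members that passed. Il1a, Il1b, Il33, Il1r1 and Il1r2 rose, which is 5 of 9 beside 6.34% of all tested genes called higher and 8.9% called at all. None of the 4 other tested members, Il1rn, Il1rap, Il1rl1 and Il18, was called, and none of the 9 was called lower. Without DSS 1, and with the same 9 tested, the 5 rose again and Il18 fell, among 1771 genes called in all. Among the 9, 5 lay above and 1, Il18, lay below control in every sample, beside 25.6% and 9.51% of all tested genes. The members' median log2 difference was 1.05, against 0.134 over all tested genes. Measured from that all-gene median, the log2 difference was 5.86 for Il1b, 3.87 for Il1r2, 2.02 for Il33, 0.91 for Il1r1 and -1.47 for Il18.

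**Figure D1:**
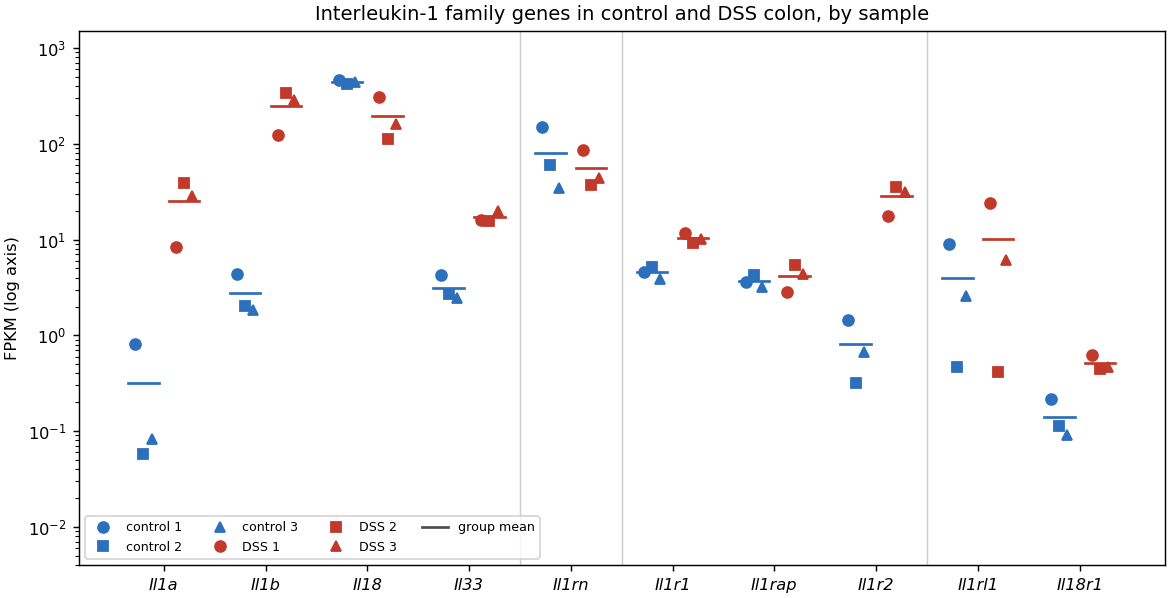
FPKM on a log axis for the 10 members in each control (blue) and DSS (red) sample, with group means as lines; ligands, the antagonist, the receptors and decoy of interleukin-1, and the receptors of interleukin-33 and interleukin-18 are set apart by grey lines. The DSS samples lie above all control samples for Il1a, Il1b, Il33, Il1r1, Il1r2 and Il18r1 and below them for Il18, and the groups overlap for Il1rn, Il1rap and Il1rl1.

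Promoter windows are printed for Il1a, Il1b and Il1r2, the members with the largest log2 differences, and for Il18, the member that lay below control in every sample. Each is the 250 bases before the gene's start in RefSeq on GRCm38.p6, 5′ to 3′ on the gene's strand. Capitals mark matches on either strand to AP-1 (TGANTCA), C/EBP (TTNNGNAA), STAT (TTCNNNGAA), the PU.1 core (GAGGAA), the TATA box (TATAAA) or NF-kappaB, of which C/EBP and PU.1 overlap in Il1a.
Il1a, chr2:129309973-129310222, minus strand: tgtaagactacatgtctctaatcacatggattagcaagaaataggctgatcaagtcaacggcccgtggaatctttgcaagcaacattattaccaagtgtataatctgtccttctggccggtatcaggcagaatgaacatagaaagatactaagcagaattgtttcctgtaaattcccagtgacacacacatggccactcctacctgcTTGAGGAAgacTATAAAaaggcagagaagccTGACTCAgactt
Il1b, chr2:129371140-129371389, minus strand: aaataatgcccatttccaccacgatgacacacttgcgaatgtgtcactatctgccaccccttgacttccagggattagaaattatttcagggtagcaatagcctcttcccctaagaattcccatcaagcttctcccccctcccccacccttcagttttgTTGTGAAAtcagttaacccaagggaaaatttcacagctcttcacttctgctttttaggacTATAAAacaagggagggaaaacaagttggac
Il1r2, chr1:40085843-40086092, plus strand: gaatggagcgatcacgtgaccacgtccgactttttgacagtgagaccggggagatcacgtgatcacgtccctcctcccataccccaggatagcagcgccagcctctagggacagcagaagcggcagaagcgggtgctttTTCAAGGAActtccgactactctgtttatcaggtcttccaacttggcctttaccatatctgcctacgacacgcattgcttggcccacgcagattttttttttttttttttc
Il18, chr9:50554450-50554699, plus strand: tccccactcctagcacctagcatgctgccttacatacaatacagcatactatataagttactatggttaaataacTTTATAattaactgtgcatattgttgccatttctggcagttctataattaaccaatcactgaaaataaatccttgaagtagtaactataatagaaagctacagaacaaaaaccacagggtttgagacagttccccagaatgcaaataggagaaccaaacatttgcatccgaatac
Among 32817 RefSeq promoter windows of this length, 6.75% held the AP-1 motif, 36.8% C/EBP, 7.01% STAT, 23.3% the PU.1 core, 12.4% the TATA box and 3.9% NF-kappaB. In Il1a the TATA box began 32 bases before the start, with the AP-1 match 12 bases and the overlapping C/EBP and PU.1 matches 43 and 41 bases before it. In Il1b the TATA box began 31 bases and the C/EBP match 91 bases before the start. The Il1r2 window held the STAT match, 111 bases before the start, and this RefSeq start lies inside the gene as GENCODE draws it, from 40074079 to 40125231. The Il18 window held the TATA letters on the opposite strand, 175 bases before the start. No NF-kappaB match lay in these 4 windows, which says only that its letters are absent there. These matches are letters in the reference and no measure of binding.

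Il1b, which encodes the main secreted ligand of the interleukin-1 receptor, had the largest log2 difference of the members. It stood at 125, 338 and 284 FPKM in DSS 1 to 3 and at 4.37, 2.03 and 1.86 FPKM in control 1 to 3. The lowest DSS sample lay 28.5-fold above the highest control sample, and DSS 1 was the lowest of its group. The mean rose 90.4-fold, from 2.75 ± 1.41 to 249 ± 111 FPKM (SD, n = 3 each). On the log2(FPKM + 1) scale on which all tests were made, the difference was 6.00 ± 0.42 SE (limma adjusted p = 0.00058). Its lead over Il1a depends on the value added before taking logs, since with 0.1 in place of 1 FPKM the differences were 6.43 ± 0.46 SE for Il1b and 6.16 ± 0.83 SE for Il1a. Il1b lies on chromosome 2, 129364570 to 129371139 in GRCm38, on the minus strand. Its exons overlap those of the antisense gene Il1bos, and the libraries do not record strand, but Il1bos was listed at no more than 0.208 FPKM in any sample.

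Il1a encodes interleukin-1 alpha, which is active without cleavage and acts as an alarm signal of damaged cells. It stood at 8.43, 39.04 and 28.6 FPKM in DSS 1 to 3 and at 0.807, 0.0576 and 0.0828 FPKM in control 1 to 3. All DSS samples lay above all control samples, by at least 10.4-fold, with DSS 1 lowest and control 1 highest in their groups. The mean rose from 0.316 ± 0.425 to 25.3 ± 15.6 FPKM (log2 difference 4.13 ± 0.53 SE, limma adjusted p = 0.00635). Il1a is the neighbour of Il1b, 54.6 kb away at 129299610 to 129309972 on the same chromosome and strand, and its exons overlap those of Gm14023 on the opposite strand, listed at no more than 0.612 FPKM. Il1b exceeded Il1a in every sample, by 8.65-fold to 14.8-fold in DSS and by 5.42-fold to 35.3-fold in control colon.

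Il18, the epithelial ligand gene of the family, was the most abundant member in control colon. It stood at 309, 111 and 159.98 FPKM in DSS 1 to 3 and at 468, 426 and 446 FPKM in control 1 to 3. Every DSS sample lay below every control sample, the control values were close together, and DSS 1 lay nearest to them. The mean was 193 ± 103 FPKM in DSS against 447 ± 20.96 FPKM in control colon, 2.31-fold apart, with a log2 difference of -1.33 ± 0.34 SE (95% interval -2.14 to -0.53) that missed the threshold after adjustment (limma adjusted p = 0.0555). It passed without DSS 1, at a log2 difference of -1.74 (limma adjusted p = 0.00218), and after scaling by upper quartile (0.0411) or median of ratios (0.0366), with adjusted p of 0.00218 to 0.172 over the 14 alternative settings. Of the 12 epithelial markers, Krt8, Krt19 and Slc26a3 fell and 9 were not called, beside 2.56% of all tested genes called lower. Without DSS 1, on the same genes, these 3 and Cdh1 were called lower and Car1, Cdx2 and Muc2 higher. With all samples, means in DSS against control were 5666 and 2983 FPKM for Car1, 73.7 and 23.0 FPKM for Cdx2, and 488 and 186 FPKM for Muc2. For each of these the groups overlapped. Krt8 and Krt19 were not called when DSS 2, DSS 3 or any 1 control sample was left out. The part of these cells in the Il18 values was not tested. Krt8, a keratin of simple epithelium, had 2625 ± 191 FPKM in DSS against 4629 ± 836 FPKM in control colon, and Slc26a3, a chloride-bicarbonate exchanger, had 180.3 ± 1.93 and 715 ± 213 FPKM. Il18 lies on chromosome 9, 50554827 to 50581840, on the plus strand.

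Il33, the ligand gene of ST2, was higher in every DSS sample. It stood at 15.96, 15.8 and 19.8 FPKM in DSS 1 to 3 and at 4.24, 2.71 and 2.44 FPKM in control 1 to 3. DSS 1 was level with DSS 2 here, unlike its place for Il1a and Il1b. The mean rose 5.5-fold, from 3.13 ± 0.972 to 17.2 ± 2.27 FPKM (log2 difference 2.16 ± 0.21 SE, limma adjusted p = 0.00164). Il33 lies on chromosome 19, 29925114 to 29960718. Of 8 fibroblast markers, which mark a cell type known to make interleukin-33, Pdpn rose and 7 were not called, beside 6.34% of all tested genes called higher. The Pdpn call was lost without DSS 3 or any 1 control sample and with either scaling, among other settings. The summed level of the 8 markers was 618 to 1101 FPKM in DSS against 537 to 664 FPKM in control colon. Of 7 endothelial markers none was called by limma, and 1, Vwf, had an unadjusted p under 0.05 (0.0262, limma). The part of these cells in the Il33 values was not tested.

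The summed level of the 4 ligand genes overlapped between the groups while its makeup did not. The sum was 458, 504 and 493 FPKM in DSS 1 to 3 and 478, 431 and 451 FPKM in control 1 to 3. In control colon Il18 made up 98.03% to 99.03% of it and Il1b 0.412% to 0.916%. In DSS colon Il18 made up 67.5% of the sum in DSS 1, 22.1% in DSS 2 and 32.5% in DSS 3. Il1b made up 27.2%, 67.05% and 57.7% there, so that it was the larger of the pair in DSS 2 and DSS 3 and the smaller in DSS 1. Il1a made up 1.84% to 7.75% in DSS and at most 0.169% in control colon, and Il33 3.14% to 4.02% and 0.541% to 0.888%. These are shares of transcript levels per length and say nothing of how much ligand was cleaved or released.

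**Figure D2:**
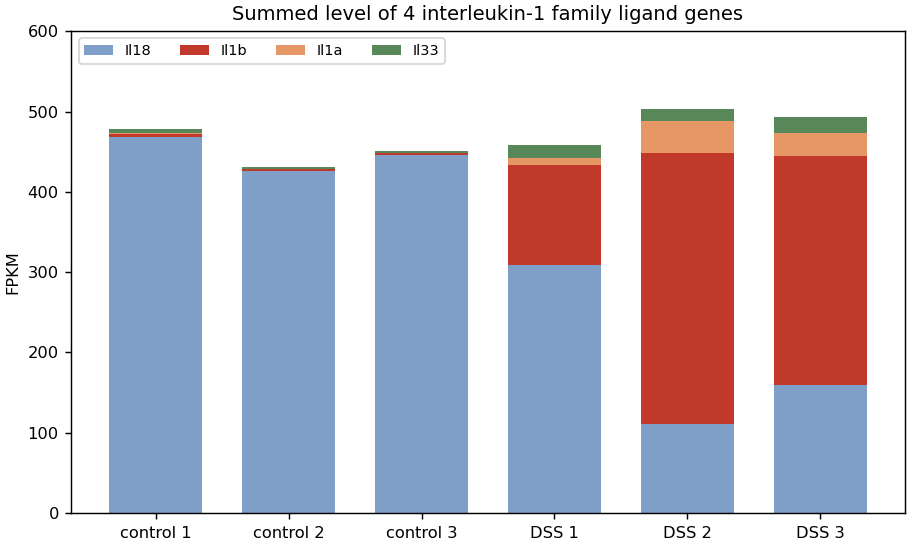
Stacked FPKM of Il18, Il1b, Il1a and Il33 in each control and DSS sample, from 0. The bars reach 431 to 504 FPKM in all 6 samples; Il18 fills nearly all of each control bar, and Il1b fills 27.2% to 67.05% of each DSS bar.

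Il1rn, the gene of the receptor antagonist, overlapped between the groups. It stood at 85.7, 36.8 and 44.3 FPKM in DSS 1 to 3 and at 148, 60.3 and 34.9 FPKM in control 1 to 3. The highest and the lowest of all 6 values were both control samples, 4.26-fold apart. The log2 difference was -0.38 ± 0.55 SE, with a 95% interval of -1.69 to 0.93 (limma adjusted p = 0.694). Without control 1 it was 0.18. Il1rn lies on chromosome 2, 24336853 to 24351494, on the plus strand, and the table of RefSeq starts gives it 3 promoters, which a value per gene does not separate.

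Set against Il1b in the same sample, the antagonist gene was in large excess in control colon and below it in DSS colon. The ratio of Il1rn to Il1b was 33.9, 29.7 and 18.8 in control 1 to 3 and 0.687, 0.109 and 0.156 in DSS 1 to 3. With Il1a added to Il1b, the ratio was 17.97 to 28.8 in control and 0.0977 to 0.643 in DSS colon. DSS 1 held the highest ratio of its group, with the lowest Il1b and the highest Il1rn of the 3. The ratios are descriptions and were not tested.

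**Figure D3:**
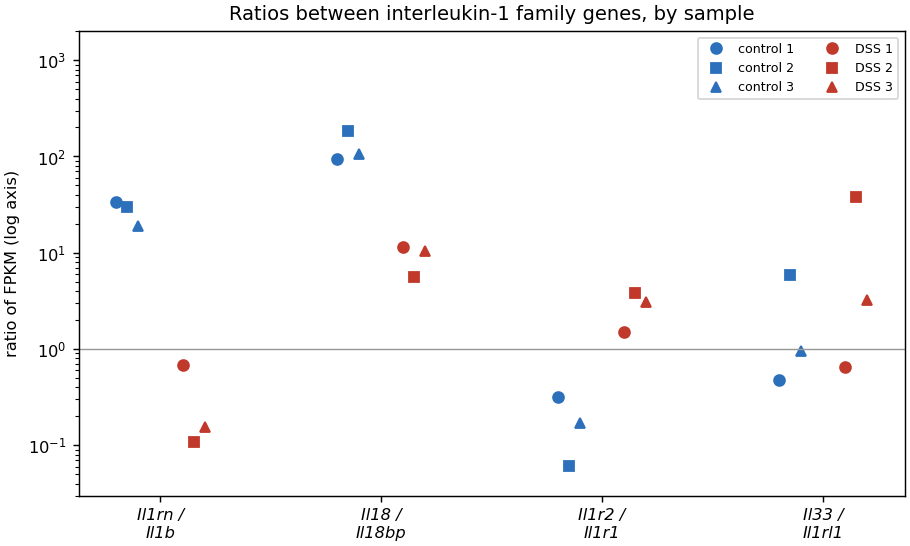
Ratios of FPKM on a log axis in each control (blue) and DSS (red) sample, with a line at a ratio of 1. Il1rn over Il1b and Il18 over Il18bp lie lower and Il1r2 over Il1r1 higher in every DSS sample than in any control sample, and Il33 over Il1rl1 overlaps between the groups.

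Il1r1, the signalling receptor gene, rose 2.3-fold. It stood at 11.9, 9.27 and 10.2 FPKM in DSS 1 to 3 and at 4.55, 5.19 and 3.90 FPKM in control 1 to 3. The groups did not overlap and the samples within each were close. The mean rose from 4.55 ± 0.645 to 10.4 ± 1.31 FPKM (log2 difference 1.05 ± 0.17 SE, limma adjusted p = 0.0135), and the call was lost without DSS 3 (0.0557) or control 3 (0.0696). Il1rap, the shared accessory chain, stood at 2.84, 5.38 and 4.39 FPKM in DSS 1 to 3 and at 3.60, 4.31 and 3.18 FPKM in control 1 to 3, with DSS samples on both sides of the control samples. Its log2 difference was 0.12 ± 0.23 SE, with a 95% interval of -0.41 to 0.66 (limma adjusted p = 0.762). That interval holds no change as large as the one measured for Il1r1. The direction for Il1rap is not given, since it was -0.00982 relative to the all-gene median and -0.0388 without DSS 2.

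Il1r2, the decoy receptor gene, had the largest rise among the receptor genes. It stood at 17.8, 35.2 and 31.7 FPKM in DSS 1 to 3 and at 1.44, 0.317 and 0.666 FPKM in control 1 to 3. All DSS samples lay at least 12.4-fold above all control samples, and DSS 1 was again the lowest of its group. The mean rose 34.9-fold, from 0.808 ± 0.575 to 28.2 ± 9.18 FPKM (log2 difference 4.01 ± 0.32 SE, limma adjusted p = 0.000788). The decoy gene stood below Il1r1 in each control sample, at a ratio of 0.316, 0.0611 and 0.171 in control 1 to 3. It stood above Il1r1 in each DSS sample, at a ratio of 1.5, 3.79 and 3.11 in DSS 1 to 3.

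Neutrophils are known to carry the decoy receptor and, with monocytes and macrophages, to make interleukin-1 beta, so their markers are given beside Il1b and Il1r2. Of 12 neutrophil markers listed, Ly6g had no row under that symbol, and the 11 others were tested and rose, beside 6.34% of all tested genes. Of these, 8 reached the level for testing through the DSS samples alone and had to differ, so the count is a description. Their summed level was 7.92 to 30.7 FPKM in control and 4138 to 7035 FPKM in DSS colon. Most of the DSS sum came from S100a8, at 2256 to 3837 FPKM, and S100a9, at 1616 to 2880 FPKM. Stfa2l1, a protease inhibitor of the stefin family, was listed at 0 in each control sample. Mmp8, the neutrophil collagenase, had 22.3 ± 4.68 FPKM in DSS against 0.0258 ± 0.0226 FPKM in control colon, and Retnlg, which encodes resistin-like gamma, had 210.4 ± 21.3 and 1.13 ± 0.890 FPKM. Of 12 tested monocyte and macrophage markers, 2 rose and 10 were not called, beside 6.34% of all tested genes called higher. The 2 were Itgam, an integrin chain that neutrophils also carry, and Fcgr1, a receptor for IgG. Without DSS 1 Ccr2 was also called, higher, and Csf1r lower. The calls of Itgam and Fcgr1 were lost without control 2 or control 3, and that of Fcgr1 also without DSS 3 or control 1. The summed level of all 13 markers listed was 677 to 946 FPKM in DSS against 520 to 658 FPKM in control colon. Lyz2, which was not called (limma adjusted p = 0.114), alone held 402 to 549 FPKM in DSS and 293 to 358 FPKM in control colon. Of the 12 tested, 6 lay above control in every DSS sample and 0 below. The means of Cd68 and Csf1r were lower in DSS. The part of these cells in the values of Il1b and Il1r2 was not tested.

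The 5 genes with the pattern most like Il1b were Wfdc21, Chil3, Cxcl2, Retnlg and Plet1. Likeness was the mean absolute difference over the 6 samples of log2(FPKM + 1), after each gene was centred on its control mean, and it was 0.232, 0.238, 0.284, 0.42 and 0.536 for the genes in that order. Cxcl2, a neutrophil attractant, stood at 29.4, 169 and 141 FPKM in DSS 1 to 3 and at 1.07, 0.259 and 0.442 FPKM in control 1 to 3. Cxcl2, Wfdc21 and Retnlg had the same order of DSS samples as Il1b, which a choice by likeness over these samples favours. Chil3, which encodes a chitinase-like protein, stood at 51.6, 84.0 and 135 FPKM in DSS 1 to 3, with DSS 3 rather than DSS 2 highest. Plet1 stood at 68.3, 129 and 304 FPKM in DSS 1 to 3 and at 5.52, 1.52 and 2.55 FPKM in control 1 to 3.

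Il1rl1, the gene of ST2, varied widely within each group, and the groups overlapped. It stood at 24.3, 0.414 and 6.09 FPKM in DSS 1 to 3 and at 8.94, 0.462 and 2.56 FPKM in control 1 to 3. The highest DSS sample was 58.7-fold above the lowest and the highest control sample 19.3-fold above the lowest, and DSS 2 lay below each control sample. Its log2 difference was 0.76 ± 1.15 SE, with a 95% interval of -2.02 to 3.55 (limma adjusted p = 0.709), and without DSS 1 it was -0.23. In both groups replicate 1 was highest and replicate 2 lowest. With the replicate number as a block the SE was 0.30, and Il1rl1 was still not called (limma adjusted p = 0.17). No label says that equal numbers pair the samples. Il1rl1 lies on chromosome 1, 40429570 to 40465415, and has 2 RefSeq starts. Its transcripts are known to include a soluble and a membrane form, which a value per gene does not separate. The ratio of Il33 to Il1rl1 was 0.657, 38.3 and 3.25 in DSS 1 to 3 and 0.474, 5.85 and 0.953 in control 1 to 3, and overlapped between the groups.

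Mast cells and regulatory T cells are known carriers of ST2. Of 8 mast cell markers 2 were tested and neither was called (limma, 0 also at an unadjusted p under 0.05), and their summed level was 4.6 to 10.1 FPKM in DSS against 4.01 to 11.2 FPKM in control colon, with Ms4a2 at 0 in each control sample. Of 6 regulatory T cell markers 3 were tested and 1 rose, beside 6.34% of all tested genes. It was Ctla4, an inhibitory receptor that reached the level through the DSS samples alone. The summed level of the 6 was 6.84 to 9.73 FPKM in DSS against 2.09 to 3.29 FPKM in control colon. Foxp3, the defining factor of regulatory T cells, was highest in DSS 1, at 0.178 FPKM, with no more than 0.0457 FPKM in any other sample. The part of mast cells and regulatory T cells in the Il1rl1 values was not tested.

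Il18r1, the ligand-binding chain of the interleukin-18 receptor, was low throughout and was not tested. It stood at 0.621, 0.45 and 0.47 FPKM in DSS 1 to 3 and at 0.216, 0.112 and 0.0901 FPKM in control 1 to 3. All DSS samples lay above all control samples, and the lowest was 2.08-fold above the highest control sample. With no filter on low values its log2 difference was 0.41 (limma adjusted p = 0.0493), and with a filter at 0.1 FPKM it did not pass (0.0587). Il18r1 begins 0.1 kb after the end of Il1rl1 on the same strand, at 40465552 to 40500854. Both genes were highest in DSS 1 and lowest in DSS 2 among the DSS samples and highest in control 1 among the controls, while DSS 2 held the lowest Il1rl1 value of all 6 and an Il18r1 value above each control sample.

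**Figure D4:**
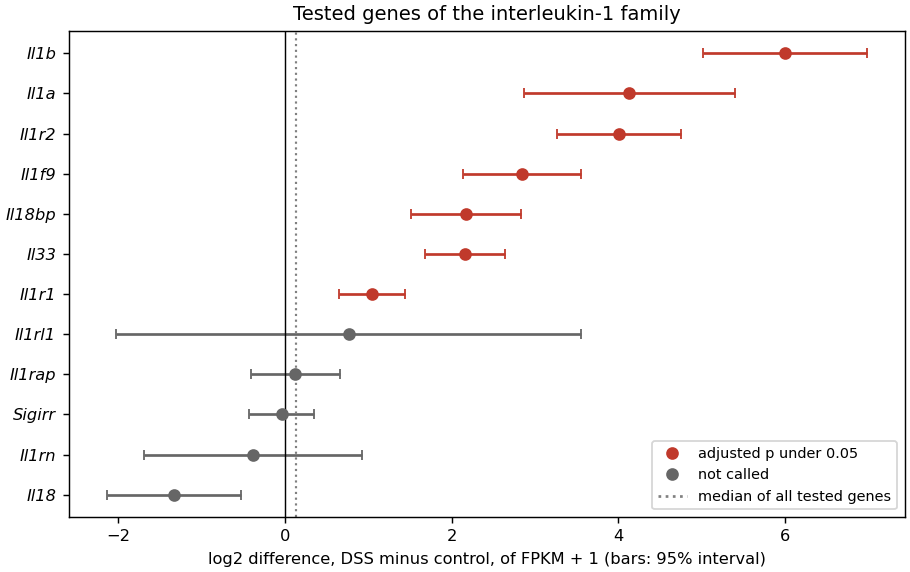
Log2 difference of FPKM + 1, DSS minus control, for the 12 tested genes of the family, with 95% intervals before any adjustment for the number of genes; red points passed adjusted p under 0.05, and the dotted line is the all-gene median of 0.134. Il1b lies highest at 6.00 and Il18 lowest at -1.33, and the interval of Il1rl1 is the widest.

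The order of the members' levels differed between the groups. In control colon Il18 was highest, Il1rn came next and neither overlapped its neighbour, with Il1r1, Il1rl1, Il1rap, Il33 and Il1b following in overlapping ranges between 0.462 and 8.94 FPKM. Il1r2, Il1a and Il18r1 were lowest there. In DSS colon Il1b came first and overlapped Il18, Il1rn was apart from both neighbours, and Il1r2, Il1a and Il33 followed with overlapping ranges. Il33 was apart from Il1r1, which overlapped Il1rl1, and Il1rl1 overlapped Il1rap. Il18r1 was last in both groups.

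Other genes of the family were read from a list of 15 symbols, of which 11 were in the files and 3 were tested. Il18bp, which encodes a secreted protein that binds and neutralises interleukin-18, stood at 26.7, 19.9 and 15.3 FPKM in DSS 1 to 3 and at 5.001, 2.33 and 4.16 FPKM in control 1 to 3. Each DSS sample lay above each control sample, and the mean rose from 3.83 ± 1.37 to 20.6 ± 5.72 FPKM (log2 difference 2.17 ± 0.28 SE, limma adjusted p = 0.00506). Its exons overlap those of Numa1 on the opposite strand, which had 9.23 to 11.0 FPKM in DSS against 7.63 to 9.99 FPKM in control colon, so reads of the pair can be shared. The ratio of Il18 to Il18bp was 93.6, 183 and 107 in control 1 to 3 and 11.6, 5.57 and 10.5 in DSS 1 to 3. Il18rap, the accessory chain of the interleukin-18 receptor, stayed below the level needed for testing, at 1.99, 1.42 and 0.825 FPKM in DSS 1 to 3 and 0.256, 0.191 and 0.113 FPKM in control 1 to 3, with the groups apart.

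The gene of interleukin-36 gamma, named Il1f9 in the files, was listed at 0 in each control sample and stood at 4.83, 10.8 and 4.37 FPKM in DSS 1 to 3 (limma adjusted p = 0.00236). Its transcript has a near-identical copy, Gm15983, so its values are uncertain. Il1f6 and Il1f8, of interleukin-36 alpha and beta, were listed at 0 in the control samples, with Il1f6 at 0, 0.76 and 0.364 FPKM and Il1f8 at 0, 2.27 and 0 FPKM in DSS 1 to 3. Their receptor gene Il1rl2 stood at 1.26, 0.137 and 0 FPKM in DSS 1 to 3 and at 0.911, 0.343 and 0.542 FPKM in control 1 to 3. Sigirr, an inhibitory receptor of the family, had 12.4 ± 1.2 FPKM in DSS against 12.8 ± 1.96 FPKM in control colon (log2 difference -0.04 ± 0.17 SE, 95% interval -0.43 to 0.35, limma adjusted p = 0.905). Il1f5, Il1f10, Il1rapl1 and Il1rapl2 were listed at 0 in all 6 samples.

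Most of these genes lie in clusters. On chromosome 1, Il1r2, Il1r1, Il1rl2, Il1rl1, Il18r1 and Il18rap span 478 kb, from 40074079 to 40551705, all on the plus strand. The cluster holds Il1r2 with its 34.9-fold rise, Il1r1 with its smaller one 99.8 kb further on, and Il1rl1 with overlapping groups, and Il18r1 and Il18rap, whose DSS samples all lay above control. On chromosome 2, Il1a and Il1b span 72 kb, and both rose, with DSS 1 lowest and control 1 highest in their groups for each. Elsewhere on chromosome 2, Il1f8, Il1f9, Il1f6, Il1f5, Il1f10 and Il1rn span 198 kb, from 24153161 to 24351494. Il1f9, Il1f6 and Il1f8 were read in DSS samples only there, Il1f9 in each DSS sample and the others in some. Il1rn was read in every sample.

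Of 17 listed enzymes and sensors that process and release the ligands 13 were tested, and Pycard, the inflammasome adaptor ASC, and Mefv, which encodes the sensor pyrin, rose, with 11 not called, beside 8.9% of all tested genes called. Mefv reached the level for testing through the DSS samples alone, and without DSS 1 Nlrp1b, an inflammasome sensor, was also called, lower. Pycard had 247 ± 61.7 FPKM in DSS against 121 ± 28.8 FPKM in control colon (limma adjusted p = 0.044; its exons overlap those of Gm45205 on the opposite strand), a call lost without DSS 2, DSS 3 or any 1 control sample and in 5 other settings, with adjusted p up to 0.108. Mefv had 1.48 ± 0.168 FPKM in DSS against 0.321 ± 0.173 FPKM in control colon (limma adjusted p = 0.021), and was not called without control 2 or control 3 or with the replicate block. Casp1 and Nlrp3 were singled out after their values were seen. Casp1, which encodes caspase-1, had 124 ± 17.2 FPKM in DSS against 138 ± 4.08 FPKM in control colon (limma adjusted p = 0.498). Nlrp3, an inflammasome sensor, was not tested, and stood at 0.937, 1.28 and 2.16 FPKM in DSS 1 to 3 and at 0.0814, 0.0814 and 0.0444 FPKM in control 1 to 3.

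Of 20 listed and tested genes of signalling below the receptors Irak3 and Tab2 rose and 18 were not called, a share near the 8.9% called among all tested genes, and the list's median log2 difference was 0.224 against 0.134 over all tested genes. Irak3, which encodes an inhibitory kinase of the receptor complex, had 3.37 ± 0.793 FPKM in DSS against 1.29 ± 0.19 FPKM in control colon (limma adjusted p = 0.0313), and its exons overlap those of Tmbim4 on the opposite strand, which had 199 to 269 FPKM. Tab2, an adaptor of the kinase TAK1, had 26.2 ± 2.63 FPKM in DSS against 16.6 ± 1.56 FPKM in control colon (limma adjusted p = 0.0441). Irak3 lost its call in 7 and Tab2 in 11 of 14 alternatives, among them every one without DSS 2, DSS 3 or a control sample, and Tab2 also under both scalings.

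Most listed genes known to be induced by interleukin-1 rose, though other signals induce them too. Of 17 listed and tested genes 12 rose and 5 were not called, beside the 6.34% of all tested genes, and the median log2 difference was 2.38. Csf3 and Il6 reached the level for testing through the DSS samples alone, so they had to differ, and of the other 15 genes 10 rose. The list was chosen with earlier results of these data known, so these counts are descriptions. Without DSS 1, 10 of the 17 rose. By sample, the list's median log2 difference from the control mean was 3.13, 1.5 and 2.96 in DSS 1 to 3. It was thus lowest in DSS 2, and its relation to the Il1a and Il1b values was not tested. Of the list, only Cxcl2 and Nfkbiz were highest in DSS 2. Saa3, an acute-phase gene, rose from 5.64 ± 3.67 to 1149.7 ± 377 FPKM (limma adjusted p = 0.000557), and Lcn2, an iron-siderophore binding protein, from 6.93 ± 2.23 to 202 ± 115 FPKM. Il6 stood at 11.4, 8.95 and 9.37 FPKM in DSS 1 to 3 and at 0.245, 0.213 and 0 FPKM in control 1 to 3. Csf3, the neutrophil growth factor G-CSF, was listed at 0 in each control sample and stood at 11.9, 8.56 and 7.99 FPKM in DSS 1 to 3. Vcam1, an adhesion molecule of vessels and stroma, rose from 5.15 ± 0.438 to 22.1 ± 7.17 FPKM. The neutrophil markers given beside Il1b were also higher in DSS. By sample, their median log2 difference from the control mean was 2.82, 2.95 and 2.88 in DSS 1 to 3. The part of neutrophils in the values of this list was not tested.

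Of 9 listed genes linked to interleukin-18 and interleukin-33 4 were tested. Ifng and Gzmb, which interleukin-18 can induce in lymphocytes, rose, beside 6.34% of all tested genes, with Ifng tested through the DSS samples alone. Ifng was listed at 0 in each control sample and stood at 2.89, 3.02 and 3.36 FPKM in DSS 1 to 3. Gzmb, a cytotoxic granule protease, had 11.9 ± 9.99 FPKM in DSS against 0.814 ± 0.334 FPKM in control colon (limma adjusted p = 0.0357), a call lost if DSS 3 or any 1 control sample is left out, with no filter on low values and with the replicate block. Of 8 T and NK cell markers 4 were tested and rose, beside 6.34% of all tested genes, though Cd3d and Nkg7 reached the level for testing through the DSS samples alone. Cd3g, Gzma and Nkg7 lost their calls without control 2 and Gzma also without control 3. Cd3d was not followed with a control sample left out. The summed level of the 8 markers was 40.2 to 160.1 FPKM in DSS against 4.85 to 6.74 FPKM in control colon. Gzma alone stood at 22.0, 116.8 and 21.5 FPKM in DSS 1 to 3. Among the markers not tested, Cd8a lay above control in every DSS sample, while Cd3e, Cd4 and Ncr1 overlapped between the groups. The mean of Ncr1 was lower in DSS, at 0.0255 against 0.158 FPKM. The part of T and NK cells in the Ifng and Gzmb values was not tested. Areg, a growth factor gene, had 46.2 ± 13.6 FPKM in DSS against 47.9 ± 34.02 FPKM in control colon and was not called (limma adjusted p = 0.888). Ccl17, a chemokine gene, had 1.46 ± 0.673 FPKM in DSS against 2.44 ± 0.504 FPKM in control colon and was not called (limma adjusted p = 0.226). Ccl24, an eosinophil attractant, was not tested and stood at 0, 0.0839 and 0 FPKM in DSS 1 to 3 and at 1.12, 1.2 and 0.627 FPKM in control 1 to 3, with every DSS sample below every control sample. Il13 was listed at 0 in all 6 samples, Il5 in all but control 1 (0.0433 FPKM) and Il4 in all but DSS 1 (0.249 FPKM), the 3 being cytokine genes of type 2 immunity that interleukin-33 can induce.

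**Figure D5:**
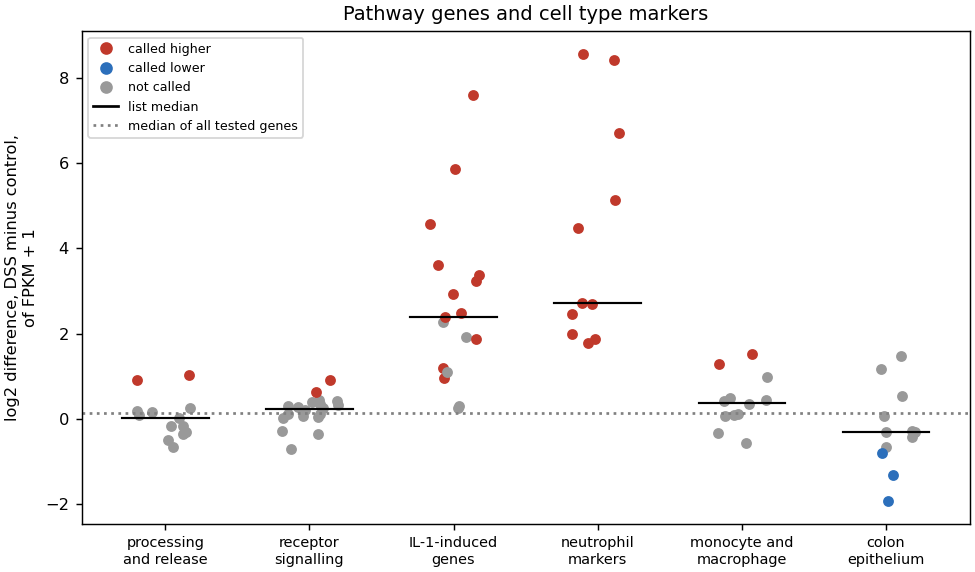
Log2 difference of FPKM + 1, DSS minus control, for each tested gene of 3 pathway lists and 3 cell type marker lists (spread sideways at random); red points were called higher, blue lower and grey not called, the black lines are list medians and the dotted line the median of all tested genes. Red points number 2 of 13 for processing and release, 2 of 20 for signalling, 12 of 17 for genes induced by interleukin-1 and 11 of 11 for neutrophil markers, of which 2 and 8 in the last pair of lists reached the level for testing through the DSS samples alone. Among all tested genes 6.34% were called higher, and differences between lists were not tested.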

How the data were processed

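Values are FPKM for each gene, deposited by the authors, 1 file per sample, per the file headers. TopHat2 2.1.1 and mm10 are named in the submitters' processing notes, while no source used here names the FPKM program or its annotation. Per the labels' protocols, library reagents included poly(A) beads and non-directional second-strand synthesis, so strand was taken as unrecorded. Groups come from sample titles. The 12348 genes that reached 1 FPKM in 3 or more samples were fitted by group as log2(FPKM + 1) using limma 3.58.1 (R 4.3.3; trend, robust, two-sided), with Benjamini-Hochberg adjustment over all of them. The fit was tested on simulated data. A fold change on this scale understates the change of low genes. Other settings numbered 14 (filters, pseudocounts, scalings, moderation, replicate block, each sample left out), and 1 more, without DSS 1 on the same genes, was added after seeing the data. Positions are from GENCODE vM21 (GRCm38), and BLAST+ 2.17.0 was used to look for near-identical copies (95% identity over 200 bases). Of the 10 members 10 matched RefSeq promoters (GRCm38.p6). Members and lists were chosen with earlier results of these data known, so counts of their called genes are descriptions. Named were all family genes, up to 6 called genes with the smallest p of each pathway list and up to 3 of each marker list, and the 5 genes most like Il1b, though not every one is described. Figures used matplotlib 3.10.9 under Python 3.11.15.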

Additional observations from a re-analysis of the deposited data

How the results depend on the processing

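Il1b, Il1r2 and Il33 were called higher under all 14 other settings, and Il1a under the 11 in which it was tested. Il1a had too few samples at 1 FPKM to be tested without any 1 DSS sample. The number of members called was 5, with 3 to 6 over the fits that left out a sample (3 without DSS 3, 6 without DSS 1 on the same genes), and 5 or 6 otherwise. The number of genes called was 1099, with 250 to 1771 over those fits (1556 without DSS 1 and 1771 without it on the same genes, 337 without DSS 3, 422 without control 1, 250 without control 2 and 276 without control 3) and 788 with no filter. Among genes that were not called, the log2 difference changed sign with 1 sample left out for Il1rn (range -0.854 to 0.176, without control 1), Il1rap (-0.0388 to 0.328, without DSS 2), Il1rl1 (-0.235 to 1.85, without DSS 1) and Sigirr (-0.163 to 0.028, without DSS 2, control 2 or control 3). The causes were not tested. No label says that equal replicate numbers pair the samples, and deviations of same-numbered samples correlated at 0.0818, 0.129 and 0.00308, with DSS 3 nearest to control 1. With the replicate number as a block, 895 genes and 5 members were called. Read depth is unknown, so no floor is given for low genes, and the 3 samples a group limit precision.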
